A study of Mus musculus with 18 samples.

Results

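Perfluorononanoic acid (PFNA) was compared with perfluorooctane sulfonic acid (PFOS) in the livers of mice fed a high-fat diet. The comparison took the arrays labelled as high-fat diet with PFNA, replicates 1 to 3, against those labelled as high-fat diet with PFOS, replicates 1 to 3, which are 6 of the 18 arrays of the study. All animals were male C57BL6 mice that entered at 6 weeks of age, ate their assigned diet freely for 12 weeks and were killed at 18 weeks. The high-fat diet took 45% of its energy from fat and the low-fat diet 10%, and each was given alone, with PFOS or with PFNA. Each group holds 3 arrays, labelled as biological replicates. The compounds were in the food, and the labels state no dose, so that the PFNA and PFOS values stand side by side without a known match of dose. Each array measured total RNA of liver tissue, in which fewer cells of a type and less RNA per cell cannot be told apart.

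PFOS and PFNA are long-chain perfluoroalkyl acids whose chains end in a sulfonic and a carboxylic acid group, respectively. Both resemble fatty acids and are known to activate PPARA, the nuclear receptor that switches on genes of fatty acid oxidation in the liver, and CAR, the receptor behind the induction of Cyp2b10 and other enzymes that clear foreign compounds. PPARA binds as a pair with RXR to repeated AGGTCA-like motifs spaced by a single base, and its targets include genes of the peroxisome, of fatty acid uptake and of lipid storage.

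The array of PFNA replicate 3 stood apart from the other PFNA arrays of the high-fat diet. Over all 34472 probes it correlated at 0.9886, 0.9885 and 0.9875 with the 3 PFOS arrays of that diet and at 0.9839 and 0.9846 with PFNA replicates 1 and 2, which correlated at 0.9886 with each other. On the first principal component of all arrays (17.9% of the variance), the PFOS arrays scored 27.8, 34.9 and 38.6, PFNA replicates 1 and 2 scored -10.4 and -8.1, and PFNA replicate 3 scored 32.4. Replicate 3 of the low-fat PFOS group also lay with the high-fat PFOS arrays, so that 5 arrays scored above 20 and the other 13 below 0. The differences are therefore given with all arrays and without these 2 divergent arrays. They were singled out by their values, and their labels name no reason to drop them, so the second set of values is no independent evidence. Whether the tissue, RNA or labels of these 2 arrays were exchanged with those of other animals was not tested. Every PFNA mean of the high-fat diet, and every call made without the 2 arrays, rests on this point. The median log2 signal of the 6 arrays compared lay between 4.43 and 4.49.

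With all 18 arrays in the model, 1 probe of 34472 (0.0029%) differed between PFNA and PFOS on the high-fat diet, by limma with an adjusted p under 0.05, and 2501 (7.26%) had an unadjusted p under 0.05. The probe measures Slc22a30, a member of the organic anion transporter family. Its log2 signal was 5.45, 5.77 and 5.89 in the PFNA arrays, 4.58, 3.93 and 4.53 in the PFOS arrays and 5.98, 6.18 and 6.23 in the high-fat controls. All 3 PFNA arrays lay above all 3 PFOS arrays and below the controls. The PFNA mean was 5.70 ± 0.23 (SD, n = 3) and the PFOS mean 4.35 ± 0.36 (SD, n = 3), a difference of 1.36 ± 0.19 (SE; limma, adjusted p = 0.0472), or 2.56-fold. Without the 2 divergent arrays the difference was 1.26 ± 0.19 (limma, adjusted p = 0.00417). The call was not stable. Leaving out any 1 of the 6 arrays compared gave adjusted p-values between 0.0646 and 0.484, and leaving out any 1 of the 12 others kept the call in 2 cases, the low-fat PFOS replicates 2 and 3, with a range of 0.0171 to 0.0972. It also missed the threshold after quantile normalization (adjusted p = 0.0909) and after centring each array on its median (adjusted p = 0.0873). On the low-fat diet the difference between the compounds was 0.11 ± 0.19 for Slc22a30.

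The promoter of Slc22a30, the only gene called with all arrays, lies on the minus strand at chr19:8405056-8405355. Sptlc3 and Slco1a4 are shown because they had the smallest adjusted p among the 12 genes of largest difference on the lower and on the higher side, once the divergent arrays were left out. Their promoters lie at chr2:139493663-139493962 on the plus strand and chr6:141856171-141856470 on the minus strand. Each window covers 250 bases before and 50 bases after the annotated start (RefSeq, GRCm38.p6), and is printed from 5′ to 3′ on the strand of the gene.
Slc22a30: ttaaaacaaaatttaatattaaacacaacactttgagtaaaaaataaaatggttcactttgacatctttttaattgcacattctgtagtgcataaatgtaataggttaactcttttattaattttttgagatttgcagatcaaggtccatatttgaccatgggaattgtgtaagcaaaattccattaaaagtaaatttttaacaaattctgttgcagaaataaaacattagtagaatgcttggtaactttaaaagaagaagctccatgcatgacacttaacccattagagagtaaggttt
Sptlc3: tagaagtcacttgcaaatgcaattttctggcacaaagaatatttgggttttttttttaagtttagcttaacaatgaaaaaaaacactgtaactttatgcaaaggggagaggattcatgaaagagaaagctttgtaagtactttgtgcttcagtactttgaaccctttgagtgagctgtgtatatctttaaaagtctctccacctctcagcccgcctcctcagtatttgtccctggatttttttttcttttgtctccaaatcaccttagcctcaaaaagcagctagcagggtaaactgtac
Slco1a4: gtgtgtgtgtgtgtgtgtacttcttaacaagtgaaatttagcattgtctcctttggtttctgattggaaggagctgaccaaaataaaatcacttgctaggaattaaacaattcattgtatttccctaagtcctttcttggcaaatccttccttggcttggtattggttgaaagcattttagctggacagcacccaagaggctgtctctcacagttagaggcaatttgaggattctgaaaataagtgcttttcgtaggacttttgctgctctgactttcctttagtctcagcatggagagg
The search looked on both strands for AGGNCANAGGNCA, a spelling of the single-base-spaced repeat, and for AGGTCA, which can overlap it. None of the 3 windows holds either spelling, so they are in lower case throughout.

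Apart from Slc22a30, the genes of smallest p whose 3 PFNA and 3 PFOS arrays did not overlap are given as values only. Of all probes, 3540 (10.3%) had arrays that did not overlap, 1767 (5.13%) with PFNA higher and 1773 (5.14%) with PFNA lower. On the low-fat diet the compounds did not overlap in 3095 probes (8.98%), 1591 higher (4.62%) and 1504 lower (4.36%) with PFNA. Cyp26a1, which breaks down retinoic acid, read 4.87, 4.84 and 4.33 with PFNA against 3.56, 3.36 and 3.35 with PFOS. Akr1c6, an aldo-keto reductase that acts on steroids, read 8.44, 8.34 and 8.20 against 7.50, 7.77 and 7.43. Scai, a cofactor of transcription, read 5.37, 5.6 and 5.16 against 4.85, 4.67 and 4.68. For these genes all 3 PFNA arrays, replicate 3 included, lay above the PFOS arrays. Kcnk2, a potassium channel, ran the other way, with 3.86, 4.03 and 4.09 under PFNA against 4.86, 4.75 and 4.74 under PFOS. Enc1, an actin-binding protein, read 6.82, 6.95 and 6.95 under PFNA against 7.51, 7.90 and 8.06 under PFOS. In the model of all arrays the differences were 1.26 ± 0.24 for Cyp26a1, 0.76 ± 0.17 for Akr1c6, 0.64 ± 0.14 for Scai, -0.79 ± 0.14 for Kcnk2 and -0.92 ± 0.18 for Enc1, each with an adjusted p of 0.646 by limma. Without the 2 divergent arrays all 5 passed, with limma adjusted p-values from 0.0141 (Cyp26a1, Kcnk2) to 0.0246 (Enc1). The controls of the high-fat diet read 4.42, 4.39 and 4.61 for Kcnk2, between the compounds, and 7.26, 6.89 and 7.04 for Enc1, at the PFNA level.

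**Figure D1:**
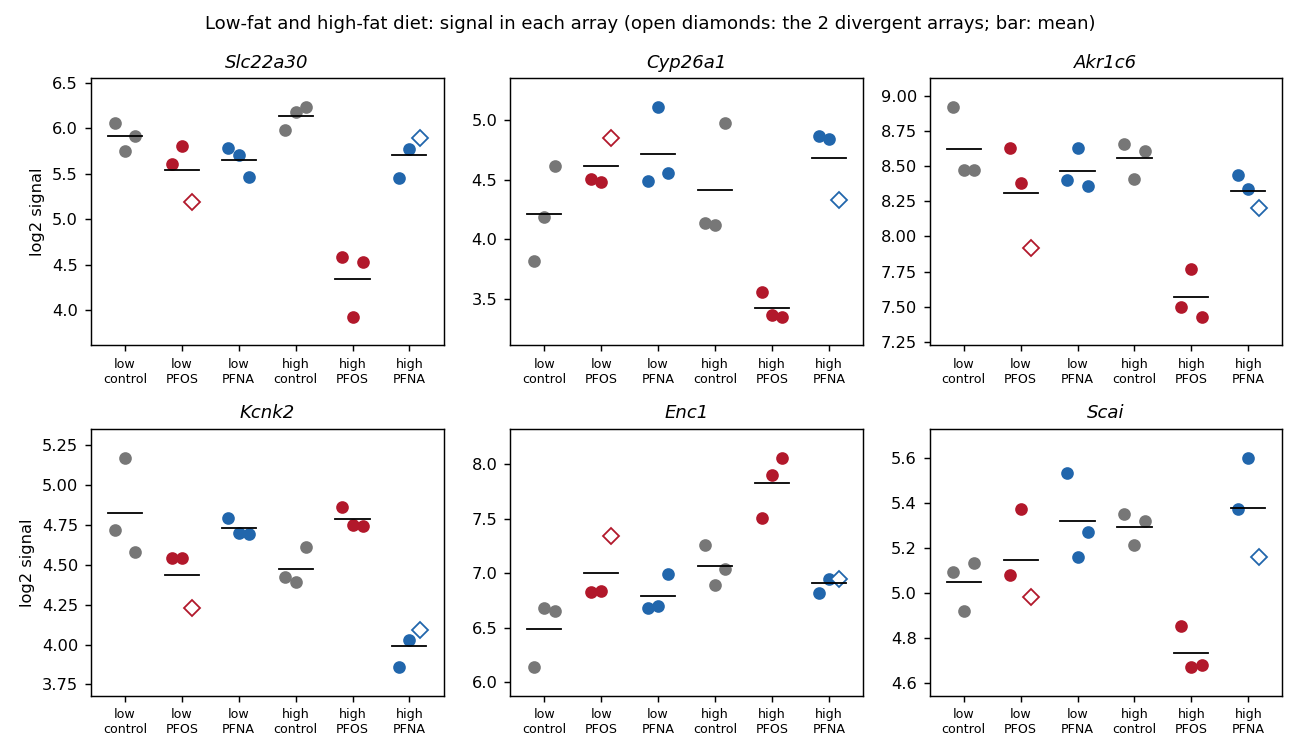
Log2 signal of 6 genes in each of the 18 arrays, by diet and compound; points are arrays, bars are means of 3 arrays and open diamonds are the 2 divergent arrays. In the high-fat groups every PFNA array of Slc22a30, Cyp26a1, Akr1c6 and Scai lies above every PFOS array, and every PFNA array of Kcnk2 and Enc1 below, while on the low-fat diet the compounds overlap except for Kcnk2.

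Without the 2 divergent arrays, 510 probes (1.48%) differed between PFNA replicates 1 and 2 and the 3 PFOS arrays at an adjusted p under 0.05 by limma, 259 higher and 251 lower with PFNA. As genes with 1 probe each, 439 of 22180 (1.98%) passed, 230 higher (1.04%) and 209 lower (0.942%). With all arrays all 510 differences had the same sign and 508 were smaller in size, the difference without the divergent arrays being 1.44 times that with them at the median. All but Slc22a30 missed the threshold with all arrays (limma, adjusted p = 0.646 to 0.833), and so did every other gene compared between PFNA and PFOS below. The shares of 1.04% higher and 0.942% lower are the background for every count of list members without the divergent arrays. The count of 510 needed both arrays left out. Leaving out PFNA replicate 3 alone gave 1 called probe (0.0029%; 3912 at an unadjusted p under 0.05), which is Fbp2, a fructose-bisphosphatase. Leaving out the low-fat PFOS replicate 3 alone gave 2. A model of PFNA replicates 1 and 2 and the 3 PFOS arrays alone, with 3 residual degrees of freedom, gave 55 (0.16%), of which 51 were among the 510.

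PFNA replicate 3 was left out because it lay with the PFOS arrays, so its place among the 510 probes describes that choice and is no independent result. It lay nearer to the PFOS mean than to the mean of PFNA replicates 1 and 2 for 478 of them (93.7%). Over all probes that share was 59.1%. It fell within the range of the 3 PFOS arrays for 284 of the 510 probes and within that of PFNA replicates 1 and 2 for 4. Over all 34472 probes these counts were 18610 and 10140. The first range spans 3 arrays and the second 2, so the counts are not directly comparable with each other. At the median of the 510 probes, replicate 3 lay 0.913 of the way from the other PFNA arrays to PFOS. The mean of the high-fat controls was nearer to PFNA replicates 1 and 2 for 337 of the 510 probes and nearer to PFOS for 173. Over all 34472 probes these counts were 17411 and 17061.

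**Figure D2:**
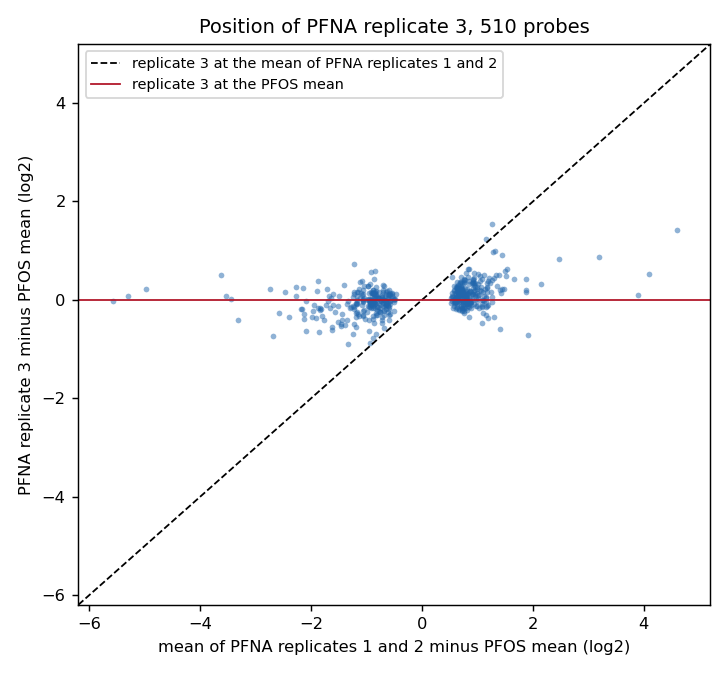
For each of the 510 probes called without the divergent arrays, the distance of PFNA replicate 3 from the PFOS mean (vertical axis, log2) against that of the mean of PFNA replicates 1 and 2 (horizontal axis, log2). The points gather along the horizontal line, where replicate 3 equals the PFOS mean, and 32 are nearer to the other PFNA arrays, whose level is the dashed diagonal.

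Genes of fatty acid uptake and binding were the list with the most called members on the lower side. None of the 17 measured members passed with all arrays, and 9 were lower with PFNA without the divergent arrays, against 0.942% of all genes. The median difference was -0.60 with all arrays and -0.89 without, where the median of all genes was 0.00 and 0.01. Fabp4, a fatty acid carrier abundant in fat tissue, read 6.28, 6.61 and 8.77 with PFNA, 8.73, 9.36 and 9.0 with PFOS and 6.73, 6.61 and 6.55 in the controls. PFNA replicates 1 and 2 sat at the control level and replicate 3 at the PFOS level. The difference was -1.81 ± 0.63 with all arrays (limma, adjusted p = 0.654) and -2.59 ± 0.25 without (limma, adjusted p = 0.000113), or 6.00-fold. Adipoq and Lep, which define adipocytes, read 2.07 to 2.53 and 3.72 to 3.83 in the PFOS arrays and 2.09 to 2.84 and 3.52 to 4.01 in the PFNA arrays, below the median signal of every array. These 2 genes were picked after their values were seen. The 6 adipocyte markers measured, Fabp4 among them, averaged 5.89 to 6.12 in the 6 arrays compared. Whether fat tissue contributed to the Fabp4 signal was not tested. Lpl, the lipase that frees fatty acids from circulating triglycerides, read 7.13, 7.58 and 9.34 with PFNA against 9.51, 9.73 and 9.37 with PFOS. Slc27a1, a fatty acid transporter, read 8.09, 7.06 and 9.54 against 9.18, 10.21 and 9.82, and Aqp3, a channel for water and glycerol, 4.65, 4.31 and 6.44 against 6.25, 7.35 and 7.93. Their differences without the divergent arrays were -2.18 ± 0.33, -2.16 ± 0.29 and -2.70 ± 0.37 (limma, adjusted p = 0.00453, 0.00165 and 0.00203), and -1.52, -1.51 and -2.04 with all arrays.

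Among ketogenic genes and other PPARA targets, 4 of 13 measured members were lower with PFNA without the divergent arrays, against 0.942% of all genes, and none was called with all arrays, with medians of -0.57 and -0.41. Pdk4, the kinase that shuts off pyruvate dehydrogenase, read 7.24, 6.88 and 10.68 with PFNA, 10.13, 10.45 and 11.21 with PFOS and 7.71, 7.47 and 7.16 in the controls. Ucp3, a mitochondrial carrier, read 3.60, 3.55 and 6.54 with PFNA, 6.79, 5.87 and 6.28 with PFOS and 3.82, 3.33 and 3.93 in the controls. For both genes PFNA replicates 1 and 2 lay at or below the controls while replicate 3 lay among the PFOS arrays. The acyl-CoA thioesterase Acot2, of the mitochondrion, read 11.15, 11.30 and 12.86 with PFNA, 12.85, 12.90 and 13.41 with PFOS and 10.61, 10.47 and 10.25 in the controls. Here PFNA replicates 1 and 2 lay between the controls and PFOS. Without the divergent arrays the difference was -3.54 ± 0.38 for Pdk4, -2.74 ± 0.25 for Ucp3, -1.83 ± 0.22 for Acot2 and -1.28 ± 0.23 for its cytosolic relative Acot1 (limma, adjusted p = 0.000331, 8.69e-05, 0.000657 and 0.0112). With all arrays these were -2.33, -1.75, -1.28 and -0.90. Acot1 and Acot2 are close paralogs, whose probes may share signal. The hormone gene Fgf21, another PPARA target, did not pass either way, with a difference of -0.78 and a 95% interval of -1.79 to 0.24 with all arrays. Ppara itself differed by -0.03, with an interval of -0.28 to 0.22.

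Peroxisomal fatty acid oxidation followed the same order of arrays, with 5 of 17 measured members lower without the divergent arrays, against 0.942% of all genes, none with all arrays, and medians of -0.51 and -0.38. Ehhadh, the bifunctional enzyme of the pathway, read 11.70, 11.51 and 13.18 with PFNA, 12.91, 13.26 and 13.12 with PFOS and 11.17, 11.05 and 11.13 in the controls. PFNA replicates 1 and 2 lay above the controls and below every PFOS array, and replicate 3 within the PFOS range. The difference was -0.97 ± 0.40 with all arrays (limma, adjusted p = 0.654) and -1.49 ± 0.16 without (limma, adjusted p = 0.000331), or 2.81-fold. Pex11a, which drives the division of peroxisomes, differed by -0.98 ± 0.15 without the divergent arrays, the thioesterase Acot4 by -0.98 ± 0.22 and the membrane transporter Abcd3 by -0.73 ± 0.13 (limma, adjusted p = 0.00432, 0.0395 and 0.0141), against -0.65, -0.65 and -0.47 with all arrays. In 16 of the 17 members replicate 3 was nearer to PFOS than to the other PFNA arrays, as it was for 59.1% of all probes. Replicate 3 was singled out for lying with PFOS, and other lists held similar counts, such as 20 of 22 genes of oxidative phosphorylation. Of 17 mitochondrial oxidation genes, 2 were lower without the divergent arrays, Eci1, which isomerises unsaturated acyl-CoA, by -0.72 ± 0.13, and Etfb, a subunit of the electron carrier, by -0.62 ± 0.15 (limma, adjusted p = 0.0124 and 0.0485), and with all arrays by -0.45 and -0.41. Cpt1a, which admits fatty acids to the mitochondrion, differed by 0.07, with an interval of -0.21 to 0.36. A probe shared by Cpt1b, Chkb and Gm44502 was not counted. It differed by -2.41 ± 0.22 without the divergent arrays (limma, adjusted p = 8.52e-05) and by -1.72 with all arrays.

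Lipid droplet and synthesis genes held the largest difference among the genes named. Cidea, which enlarges lipid droplets, read 4.71, 5.34 and 10.58 with PFNA against 11.02, 9.94 and 10.86 with PFOS. Its controls were uneven at 7.89, 4.38 and 4.32. The difference was -3.73 ± 1.48 with all arrays (limma, adjusted p = 0.654) and -5.58 ± 0.75 without the divergent ones (limma, adjusted p = 0.00162), or 47.9-fold. Plin2, the coat protein of liver droplets, differed by -0.91 ± 0.19 without them (limma, adjusted p = 0.0242) and -0.62 with them, and these were the 2 called of 18 droplet genes. A probe shared by Cideb and Nop9 was not counted. It was higher with PFNA, by 1.24 ± 0.19 without the divergent arrays (limma, adjusted p = 0.00403) and 0.88 with all arrays. Of 23 genes of fatty acid and triglyceride synthesis, 3 were lower and 1 higher. Mogat1, a monoacylglycerol acyltransferase, read 5.87, 6.03 and 8.02 with PFNA, 8.25, 7.69 and 8.19 with PFOS and 5.07, 4.83 and 5.14 in the controls. Acacb, the acetyl-CoA carboxylase of the mitochondrial surface, read 6.55, 6.60 and 7.77 with PFNA against 9.26, 8.10 and 7.93 with PFOS. All 3 PFNA arrays of Acacb lay below the PFOS arrays, although replicate 3 was close to them. Once the divergent arrays were left out, Mogat1 differed by -2.09 ± 0.29, Acacb by -1.86 ± 0.31, Me1, malic enzyme, by -1.52 ± 0.29 and Dgat2, the last enzyme of triglyceride synthesis, by 0.51 ± 0.12 (limma, adjusted p = 0.00197, 0.0079, 0.0171 and 0.042). With all arrays these were -1.40, -1.46, -1.16 and 0.32. Sptlc3, a subunit of the enzyme that starts sphingolipid synthesis, is in none of the lists. It read 4.31, 4.40 and 9.55 with PFNA, 9.53, 9.61 and 8.88 with PFOS and 4.04, 4.30 and 3.71 in the controls, so PFNA replicates 1 and 2 were at control level and replicate 3 within the PFOS range. Its difference was -3.25 ± 1.2 with all arrays (limma, adjusted p = 0.654) and -4.99 ± 0.26 without (limma, adjusted p = 1.75e-07), or 31.7-fold. PFNA replicates 1 and 2 and the controls lay below 4.43, the lowest median signal of any array.

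Cholesterol synthesis genes were lower with PFNA than with PFOS in 4 of 19 measured members without the divergent arrays, against 0.942% of all genes, and none was called with all arrays. Fdps, which makes farnesyl diphosphate, read 5.88, 6.54 and 7.68 with PFNA, 9.58, 8.23 and 7.13 with PFOS and 7.59, 7.55 and 7.58 in the controls. PFNA replicates 1 and 2 lay below the controls, the PFOS arrays spread to both sides of them, and replicate 3 lay beside them. Hmgcs1, at the start of the pathway, read 8.08, 8.42 and 9.73 with PFNA, 10.57, 9.65 and 9.50 with PFOS and 9.81, 9.52 and 9.74 in the controls. With both divergent arrays left out, Fdps differed by -2.10 ± 0.46, Hmgcs1 by -1.66 ± 0.31, Cyp51 by -1.57 ± 0.32 and Hsd17b7 by -0.99 ± 0.19 (limma, adjusted p = 0.0332, 0.0155, 0.0254 and 0.0156), and by -1.61, -1.16, -1.13 and -0.70 with all arrays. Cyp51 and Hsd17b7 act on the sterol ring late in the pathway.

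The plot of single genes by array shows these levels beside those of the controls.

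**Figure D3:**
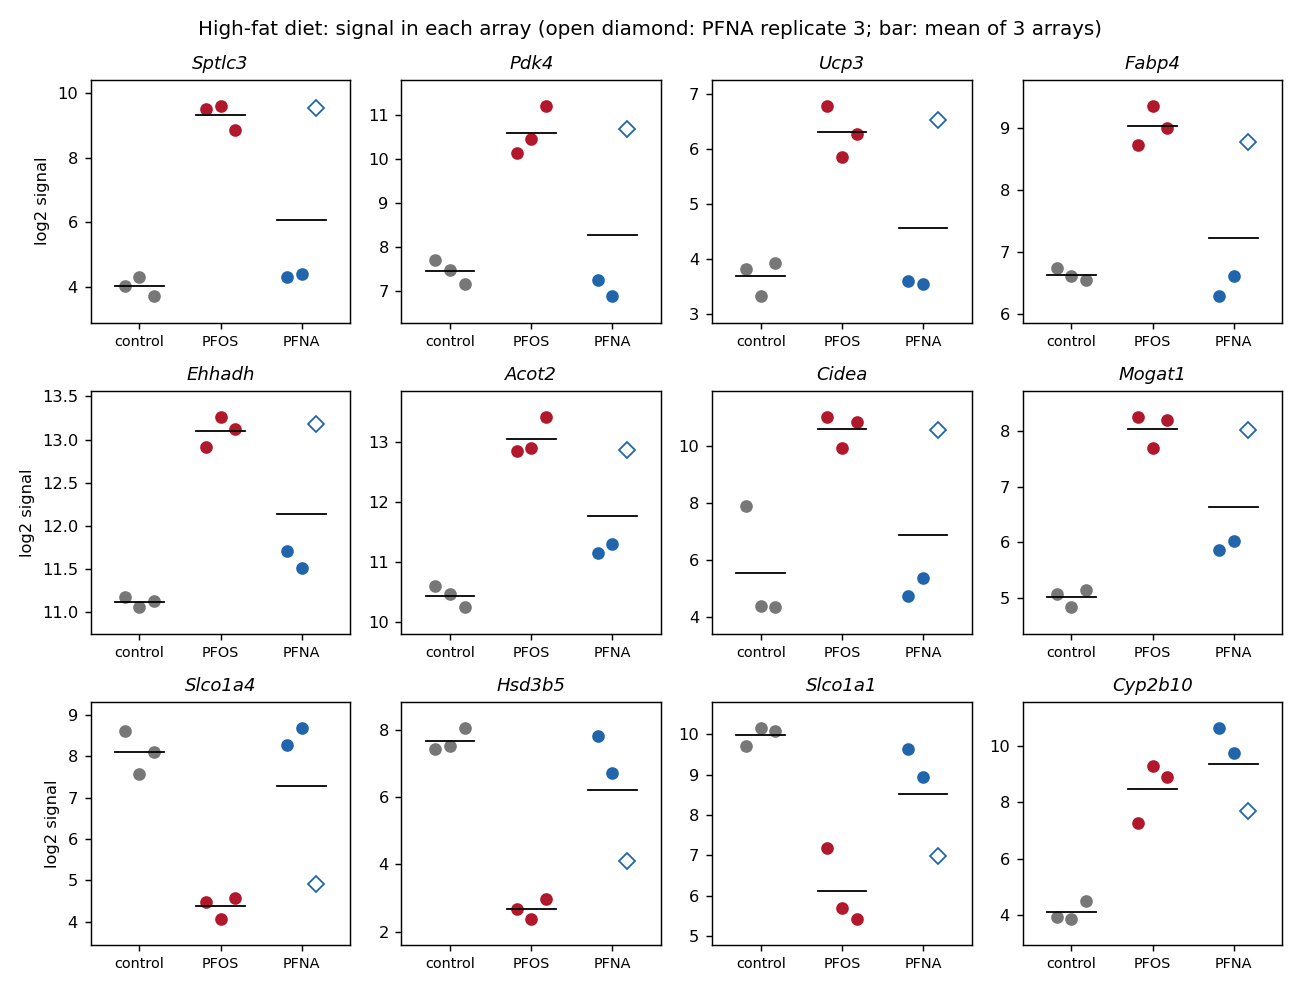
Log2 signal of 12 genes in the 9 arrays of the high-fat diet; filled points are arrays, the open diamond is PFNA replicate 3 and bars are means of 3 arrays. In Sptlc3, Pdk4, Ucp3, Fabp4, Ehhadh, Acot2, Cidea and Mogat1 PFNA replicates 1 and 2 lie below the PFOS arrays and in Slco1a4, Hsd3b5 and Slco1a1 above them, with replicate 3 near PFOS in each, while in Cyp2b10 the compounds overlap far above the controls.

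The fatty acid omega-hydroxylases split. Cyp4a12a, Cyp4a12b and Cyp4f15, which oxidise the tail of fatty acids, stood above the controls in all 6 treated arrays. Cyp4a12b read 11.15, 10.99 and 11.01 with PFNA, 11.08, 10.97 and 10.99 with PFOS and 9.05, 9.33 and 8.62 in the controls. Both compounds raised it above the controls, by 2.05 ± 0.19 with PFNA and 2.01 ± 0.19 with PFOS (limma, adjusted p = 0.000117 and 7.68e-05), and the compounds differed by 0.04, with a 95% interval of -0.36 to 0.43. Cyp4a12a differed between them by -0.03 (interval -0.32 to 0.26), and Cyp4f15 by -0.04 (interval -0.37 to 0.29). Cyp4a12a and Cyp4a12b are close copies, whose probes may share signal. Cyp4a14 read 13.16, 13.24 and 13.45 with PFNA, 13.39, 13.52 and 13.51 with PFOS and 12.58, 12.79 and 12.68 in the controls, a difference between compounds of -0.19 (interval -0.46 to 0.08). Cyp4a31 was lower with PFNA without the divergent arrays, by -1.70 ± 0.32, while Cyp4f14 and Cyp4f13 were higher, by 2.13 ± 0.38 and 0.96 ± 0.16 (limma, adjusted p = 0.0155, 0.0124 and 0.00686), against -1.14, 1.53 and 0.71 with all arrays. These were the 3 called of 7 measured members. The probe shared by Cyp4a10 and Cyp4a32 was not counted. It read 9.21, 8.81 and 10.4 with PFNA against 10.37, 10.9 and 10.33 with PFOS. Its difference was -1.52 without the divergent arrays, where it was called, and -1.06 with all arrays.

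Targets of CAR and PXR, the receptors for foreign compounds, held called members on both sides. None of 32 measured members passed with all arrays, and 6 were higher and 1 lower without the divergent ones, against 1.04% and 0.942% of all genes. The list's median difference was 0.22 with all arrays and 0.36 without. Cyp2b10, the standard mark of CAR activity, read 10.63, 9.75 and 7.70 with PFNA, 7.26, 9.28 and 8.91 with PFOS and 3.92, 3.88 and 4.49 in the controls. Every treated array lay far above the controls and the compounds overlapped, with a difference of 0.88 and a 95% interval of -0.54 to 2.29. It was 1.71 ± 0.49 without the divergent arrays (limma, adjusted p = 0.11). Cyp2c37, which oxidises arachidonic acid, read 11.84, 11.56 and 10.26 with PFNA, 9.12, 10.65 and 9.73 with PFOS and 11.03, 11.03 and 11.09 in the controls. PFNA replicates 1 and 2 lay above the controls and every PFOS array below. Without the divergent arrays the difference was 1.87 ± 0.31 for Cyp2c37 and 1.5 ± 0.32 for the related Cyp2c54, and -1.63 ± 0.31 for Abcc4, an exporter of organic anions (limma, adjusted p = 0.00704, 0.0285 and 0.0162). With all arrays these were 1.39, 1.2 and -1.27. Cyp2c genes are near copies of each other, and their probes may share signal. Slco1a4, an uptake transporter for bile acids and drugs, read 8.28, 8.68 and 4.91 with PFNA, 4.49, 4.08 and 4.58 with PFOS and 8.61, 7.57 and 8.11 in the controls. PFNA replicates 1 and 2 were at the control level, and replicate 3 lay just above the PFOS arrays. The difference was 2.91 ± 0.91 with all arrays (limma, adjusted p = 0.646) and 4.10 ± 0.36 without (limma, adjusted p = 6.64e-05), or 17.1-fold. The PFOS values lay around the median signal of the 6 arrays compared, 4.43 to 4.49.

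Some genes of bile acid handling and some steroid enzymes were called higher with PFNA without the divergent arrays. Slco1a1, another uptake transporter, read 9.64, 8.95 and 6.97 with PFNA, 7.19, 5.70 and 5.43 with PFOS and 9.70, 10.15 and 10.07 in the controls. Hsd3b5, a steroid reductase of male liver, read 7.82, 6.71 and 4.10 with PFNA, 2.68, 2.39 and 2.96 with PFOS and 7.43, 7.51 and 8.05 in the controls. For Hsd3b5 all PFNA arrays, replicate 3 included, lay above the PFOS arrays. The difference was 3.53 ± 0.99 with all arrays (limma, adjusted p = 0.646) and 4.59 ± 0.75 without the divergent ones (limma, adjusted p = 0.00676), the largest positive one among named genes, or 24.1-fold. The PFOS arrays and PFNA replicate 3 lay below 4.43, the lowest median signal of any array, for Hsd3b5. Of 18 bile acid genes, 4 were higher and 0 lower without the divergent arrays, against 1.04% and 0.942% of all genes: Slco1a1 by 3.19 ± 0.46, Cyp39a1, an oxysterol hydroxylase, by 1.92 ± 0.35, Akr1d1, which reduces the steroid ring, by 1.29 ± 0.22, and Fgfr4, the receptor for the gut hormone that restrains bile acid synthesis, by 0.72 ± 0.16 (limma, adjusted p = 0.00296, 0.0139, 0.0101 and 0.0354). With all arrays they differed by 2.41, 1.04, 1.01 and 0.55. Cyp7a1, the rate-limiting enzyme, did not pass, at 10.79, 8.51 and 8.03 with PFNA against 7.36, 9.08 and 6.43 with PFOS, a difference of 1.49 with an interval of -0.23 to 3.21. Hsd11b1, which regenerates active glucocorticoid, read 9.84, 9.85 and 8.83 with PFNA against 8.71, 8.21 and 8.09 with PFOS, and differed by 1.51 ± 0.17 without the divergent arrays (limma, adjusted p = 0.000345) and by 1.17 with them. Other steroid enzymes, picked out after their values were seen, were lower with PFNA without the divergent arrays: Akr1c18, which inactivates progesterone, by -1.19 ± 0.15 and Hsd17b11 by -0.94 ± 0.18 (limma, adjusted p = 0.00109 and 0.0187), against -0.82 and -0.66 with all arrays. Of the 10 genes of male-predominant liver expression, Hsd3b5 and Ugt2b1, a glucuronosyltransferase, were higher and none lower, and of 8 female-predominant genes none was called.

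In the other lists at most 4 members were called without the divergent arrays. The complement list counts the olfactory receptor gene Olfr48, matched by a synonym in place of C3. The acute phase list counts Saa2 in place of Saa1 as well as for itself. Of 27 genes of complement and coagulation, 4 were higher with PFNA: C8a by 1.08 ± 0.21 and C8b by 1.25 ± 0.26, both parts of the pore that complement forms, F7, clotting factor VII, by 0.85 ± 0.15, and C2 by 0.53 ± 0.13 (limma, adjusted p = 0.0195, 0.0284, 0.0112 and 0.0473), and by 0.87, 0.97, 0.55 and 0.38 with all arrays. C8b read 11.36, 10.78 and 10.22 with PFNA, 9.53, 10.05 and 9.87 with PFOS and 10.55, 11.12 and 10.74 in the controls, so that PFNA lay above PFOS in all arrays and around the controls in replicates 1 and 2. Of 17 clock genes, 3 repressors of the clock were higher: Per1 by 1.18 ± 0.23, Bhlhe40 by 0.88 ± 0.19 and Cry2 by 0.75 ± 0.14 (limma, adjusted p = 0.0211, 0.0332 and 0.0166), against 0.74, 0.57 and 0.45 with all arrays. The labels do not give the hour of killing. The interferon regulator Irf7 was the 1 called of 13 interferon-stimulated genes, at 8.50, 7.86 and 6.96 with PFNA, 6.69, 6.62 and 7.0 with PFOS and 8.22, 8.05 and 7.59 in the controls. Further single calls were Cyp1a2, which metabolises caffeine, among 6 AHR targets, by 1.0 ± 0.15, and Mcm6, a subunit of the replicative helicase, among 24 cell cycle genes, by -1.13 ± 0.24 (limma, adjusted p = 0.00296 and 0.0283), and 0.70 and -0.74 with all arrays. Taldo1 and Ugdh, enzymes of sugar metabolism, were the called members of 18 NRF2 targets, by -1.07 ± 0.15 and -0.84 ± 0.18 (limma, adjusted p = 0.00274 and 0.0303), and -0.72 and -0.57 with all arrays. The NRF2 list held 11 negative and 7 positive differences without the divergent arrays. Prodh among 18 genes of the urea cycle and amino acid breakdown, Ppp1r3c among 14 of glucose and glycogen, Scarb1 among 17 of lipoproteins, Itih4 among 23 of the acute phase and Uqcrc1 among 22 of oxidative phosphorylation were the called members of their lists, all higher, by 1.08, 0.72, 0.73, 0.88 and 0.53 without the divergent arrays and 0.70, 0.40, 0.47, 0.56 and 0.38 with all arrays. Uqcrc1 ran against its list, in which 20 of 22 differences were negative without the divergent arrays, with a median of -0.20. No member was called in either direction, with or without the divergent arrays, among 17 nuclear receptors, 19 genes of endoplasmic reticulum stress and 15 immediate-early genes. In all, 63 of the 527 genes measured in the 36 lists passed without both divergent arrays, against 439 of all 22180 genes (1.98%), and 0 passed with all arrays or without PFNA replicate 3 alone. The lists were chosen with earlier results of these data known, and the 2 arrays were singled out by their values. The higher share among list genes is therefore no independent evidence.

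**Figure D4:**
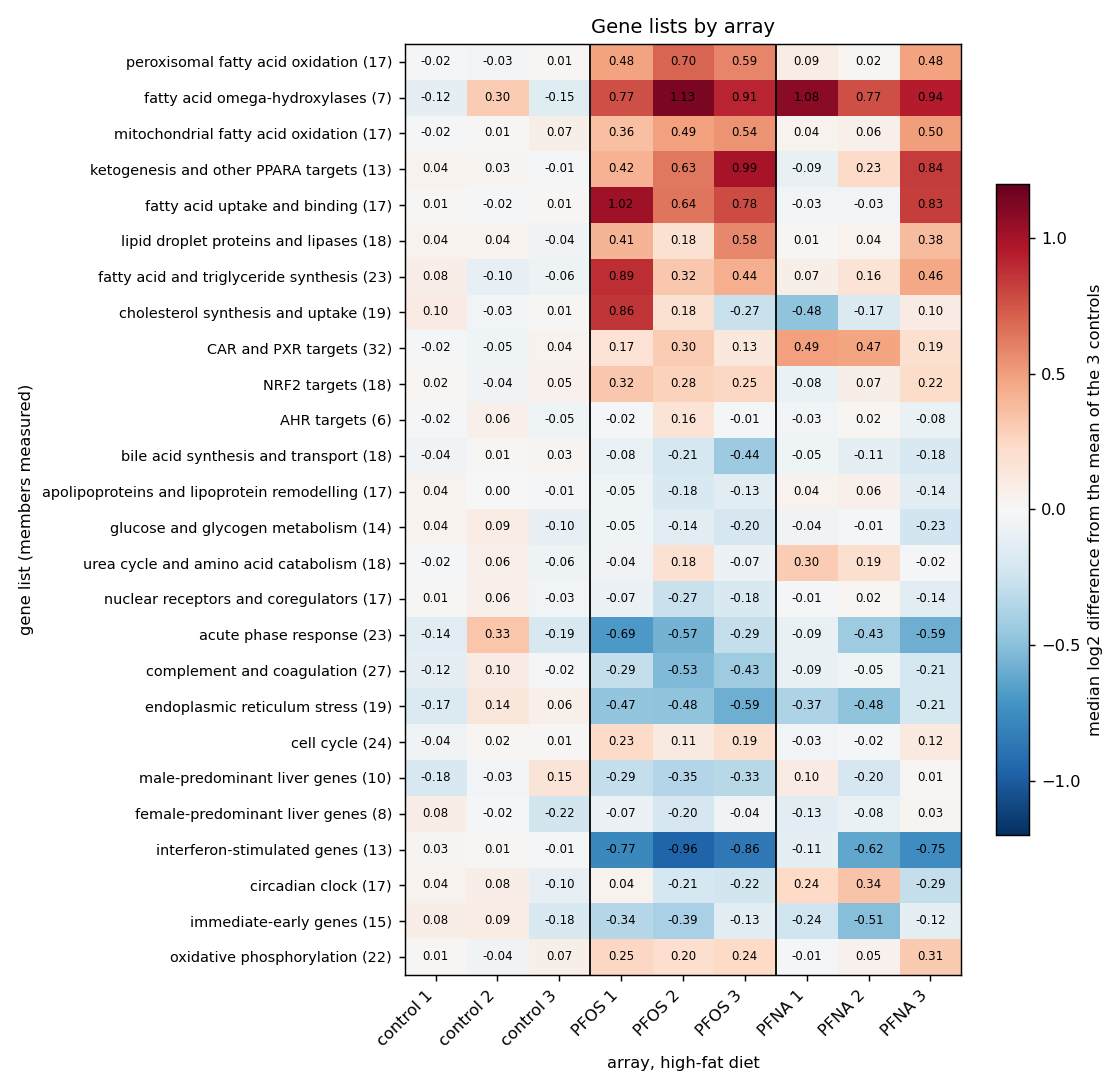
Median log2 difference of each gene list from the mean of the 3 high-fat controls, in each of the 9 high-fat arrays; numbers in cells are these medians, red is above and blue below the controls, and the count of measured members follows each list. The complement list includes Olfr48 in place of C3, and the acute phase list includes Saa2 in place of Saa1 as well as for itself. For fatty acid uptake the PFOS arrays stand at 1.02, 0.64 and 0.78, PFNA replicates 1 and 2 at -0.03 each and PFNA replicate 3 at 0.83, while the omega-hydroxylases stand between 0.77 and 1.13 in all 6 treated arrays.

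The motif search was run on the promoters of the genes called without the divergent arrays. AGGNCANAGGNCA was in 125 of 32851 promoters (0.381%), in 1 of the 167 lower genes with a sequence, Fabp1, and in 2 of the 178 higher ones, Entpd8 and F7. AGGTCA was in 5340 promoters (16.3%), in 21 of the 167 and in 33 of the 178. The percentages are shares of promoter windows, whereas a gene was counted if any of its windows held the match. The 2 kinds of count are therefore not directly comparable. Fabp1, the main fatty acid carrier of hepatocytes, differed by -0.62 ± 0.13 without the divergent arrays (limma, adjusted p = 0.0258) and -0.45 with all arrays. The windows of Fabp1 at chr6:71199629-71199928 and F7 at chr8:13025784-13026083, both on the plus strand of GRCm38.p6, are shown because they hold the repeat. Capitals mark the matches, which lie on the other strand, so that AGGTCA reads TGACCT here.
Fabp1: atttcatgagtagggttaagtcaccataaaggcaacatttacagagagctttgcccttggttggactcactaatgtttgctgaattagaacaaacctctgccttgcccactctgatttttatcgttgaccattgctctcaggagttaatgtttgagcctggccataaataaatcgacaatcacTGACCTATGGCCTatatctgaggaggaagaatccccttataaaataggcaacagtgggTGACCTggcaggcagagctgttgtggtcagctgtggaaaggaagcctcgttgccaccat
F7: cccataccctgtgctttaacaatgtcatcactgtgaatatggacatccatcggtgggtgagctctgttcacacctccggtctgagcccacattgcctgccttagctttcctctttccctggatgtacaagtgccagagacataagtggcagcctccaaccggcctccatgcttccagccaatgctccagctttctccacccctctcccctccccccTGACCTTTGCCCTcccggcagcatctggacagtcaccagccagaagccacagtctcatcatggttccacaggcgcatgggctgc
The repeat lies at -67 to -55 from the start in Fabp1 and at -34 to -22 in F7, and Fabp1 has a separate TGACCT at -9 to -4. These matches describe the letters and were not tested for binding.

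Set against the controls of the same diet, which both comparisons share, more probes passed with PFOS than with PFNA. With all arrays 352 probes (1.02%) differed between PFOS and control, 218 higher (0.632%) and 134 lower (0.389%), and 39 (0.113%) between PFNA and control, 30 higher (0.087%) and 9 lower (0.0261%), by limma at an adjusted p under 0.05. Without the divergent arrays the counts were 1011 (2.93%) with PFOS, 1.8% of probes higher and 1.13% lower, and 148 (0.429%) with PFNA, 0.302% higher and 0.128% lower. These counts come from groups of 3 and 2 arrays in the latter case. Lipases of the droplet, Pnpla2 and Lipe, passed with both compounds. Pnpla2 was 1.19 ± 0.13 above control with PFOS and 0.85 ± 0.13 with PFNA, and Lipe 0.86 ± 0.11 and 0.79 ± 0.11 (limma, adjusted p = 0.000359, 0.014, 0.00178 and 0.00777). The difference between the compounds was -0.34 for Pnpla2, with an interval of -0.62 to -0.06, and -0.07 for Lipe, with an interval of -0.31 to 0.17, and neither passed. Cyp2b10 was 4.39 ± 0.67 above control with PFOS and 5.26 ± 0.67 with PFNA, and Cyp2c55, another CAR target, 2.5 ± 0.47 and 3.06 ± 0.47 (limma, adjusted p = 0.00621, 0.00193, 0.0183 and 0.0103). Ehhadh passed with PFOS, at 1.98 ± 0.40 (limma, adjusted p = 0.0259), and was at 1.01 ± 0.40 with PFNA (limma, adjusted p = 0.405), where its arrays read 11.70, 11.51 and 13.18. Slco1a1 was -3.87 ± 0.65 from control with PFOS and -1.45 ± 0.65 with PFNA (limma, adjusted p = 0.00936 and 0.481). Acot1 passed with PFOS with all arrays, at 2.71 ± 0.37 above control (limma, adjusted p = 0.00218), and was not called there with PFNA. Without the divergent arrays it passed with PFNA, at 1.43 ± 0.23 above control (limma, adjusted p = 0.0113). Cyp2c53-ps, a pseudogene of the Cyp2c cluster, was higher with PFNA replicates 1 and 2 than with PFOS or control, at 7.22, 6.27 and 2.95 against 2.92, 2.53 and 3.12 with PFOS and 2.5, 3.89 and 3.63 in the controls.

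On the low-fat diet the same pair of compounds gave no called probe by limma with all arrays (0%; 1351, or 3.92%, at an unadjusted p under 0.05) or without the divergent ones (0%; 1193, or 3.46%). The difference of differences between the diets gave 0 called probes by limma with all arrays (0%; 1171, or 3.4%, at an unadjusted p under 0.05) and 31 (0.0899%) without the divergent arrays, 9 higher (0.0261%) and 22 lower (0.0638%) on the high-fat diet. Those included Sptlc3 at -5.24 ± 0.36, Ucp3 at -3.11 ± 0.36, Fabp4 at -2.94 ± 0.35, Ehhadh at -1.43 ± 0.23 and Slco1a4 at 3.89 ± 0.51 (limma, adjusted p = 1.21e-05, 0.00211, 0.00252, 0.0249 and 0.00653). With all arrays none of the 5 passed, the lowest adjusted p of the interaction in the 5 genes being 0.999. For Slc22a30 the interaction was 1.24 ± 0.27 with all arrays (limma, adjusted p = 0.999) and 1.32 ± 0.27 without the divergent ones (limma, adjusted p = 0.0968).

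The labelled tissue was borne out by its markers. The hepatocyte markers Alb and Ttr read 13.81 to 13.95 and 13.23 to 13.56 in the 6 arrays compared. The mean log2 signal of the 12 Kupffer cell and macrophage markers was 7.42, 7.58 and 7.80 with PFOS and 7.49, 7.81 and 7.51 with PFNA, and that of the 6 adipocyte markers 6.12, 6.00 and 6.05 with PFOS and 5.89, 5.96 and 6.09 with PFNA. Across the lists of macrophage, stellate, endothelial, cholangiocyte, lymphocyte, neutrophil, pancreatic and erythroid markers, no gene was called with or without the divergent arrays. Fabp1 and Fabp4 were the 2 marker genes called without them.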

How the data were processed

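Liver RNA was measured on 18 expression arrays, 3 in each of 6 groups. The arrays of a group are labelled as biological replicates, which was read as 1 array per mouse. The deposited table holds log2 signal for 34472 probes, made by the authors with Transcriptome Analysis Console (no version stated), as the submitters' processing notes say. Background correction, normalization, summarization and the base of the logarithm are not given in the sources used, and log2 was read from the range of the values. The table gives no error for a single probe, so the number of arrays limits the precision.

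Probes were named by the platform annotation, which gave 23521 probes 1 symbol, 1814 several and 9137 none, and each gene was represented by its probe of highest mean signal. Of the Entrez numbers, 23328 matched RefSeq with the same symbol. Listed genes without a probe of their own symbol were matched by synonym. This put Olfr48 in place of C3, Saa2 in place of Saa1 and Trh in place of Trf, a hepatocyte marker. Genes found only on probes of several genes were left out of the lists. Group means of all 18 arrays were modelled with limma 3.58.1 in R 4.3.3 (12 residual and 5.21 prior degrees of freedom), without a filter. The 5 contrasts were each adjusted by Benjamini and Hochberg over all probes and called at 0.05. Of 200 probes changed in each of 5 simulated data sets, 72.4% of those changed 2-fold and 98% of those changed 4-fold were recovered. Noise in the simulations was independent between probes, and no simulated array diverged from its group. The shares therefore do not carry over to the data, where Sptlc3 at -3.25 and Cidea at -3.73 were not called with all arrays.

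Named genes were the 12 of largest difference each way among those called, filled by the smallest p among genes whose arrays did not overlap, and up to 4 called members, or the 2 of largest difference, of each of 36 gene lists, and any member of the lists of peroxisomal oxidation, omega-hydroxylases and CAR and PXR targets. Alb, Ttr, Adipoq, Lep, Fgf21, Ppara, Cpt1a, Pnpla2, Lipe, Akr1c18, Hsd17b11, Pigr, Fbp2, Entpd8 and the small nucleolar RNAs lie outside this rule and were chosen after their values were seen. So do the shared probes of Cyp4a10, Cpt1b and Cideb. The members, lists and tests were chosen with earlier results of these data known. Alternatives changed normalization, filter, weights, prior, block and arrays.

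Same-numbered PFNA and PFOS arrays did not deviate together (correlations of -0.03, -0.04 and 0.03), so numbers were not used as pairs. Promoter sequences are those of RefSeq.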

Additional observations from a re-analysis of the deposited data

Results flagged for a closer look

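The difference of PFNA from PFOS had opposite signs on the 2 diets for 2 of the genes named, with no overlap between arrays on either diet. The share of all probes with this pattern was not counted. Arrays did not overlap in 10.3% of probes on the high-fat and 8.98% on the low-fat diet. Kcnk2 was itself named because its high-fat arrays did not overlap. Kcnk2, the potassium channel gene, read lower with PFNA in all high-fat arrays and higher in all low-fat arrays, where it read 4.79, 4.70 and 4.69 with PFNA against 4.54, 4.54 and 4.23 with PFOS. The difference between the diets was -1.08 ± 0.20, and it did not pass the test of the interaction (limma, adjusted p = 0.974). Without the divergent arrays it was -1.03 ± 0.22 (limma, adjusted p = 0.117). Ngp, a granule protein of neutrophils, read 4.20, 4.21 and 4.09 with PFNA against 3.91, 3.85 and 3.65 with PFOS on the high-fat diet, and 4.06, 4.0 and 3.98 against 4.14, 4.14 and 4.12 on the low-fat diet. The difference between the diets was 0.48 ± 0.18, and it did not pass either (limma, adjusted p = 0.999). These Ngp values all lay below 4.43, the lowest median signal of any array. None of the 9 neutrophil markers was called between the compounds on either diet, with or without the divergent arrays.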

How the results depend on the processing

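The count of 1 called probe between PFNA and PFOS on the high-fat diet became 0 after quantile normalization, after centring each array, with the replicate block and with only the compared groups in the model, and stayed 1 with a filter on low signal, with array weights and with a trended prior. Leaving out 1 array at a time gave 0 to 2. Without both divergent arrays it was 510, and with only the 5 arrays of the pair, PFNA replicate 3 left out, 55. These alternatives on single outside arrays and on 5 arrays were chosen after seeing the data. The interaction rose from 0 to 31 without both divergent arrays. The PFOS count against control went from 352 to 794 with the filter, 578 with array weights, 550 with the trended prior and 1011 without both arrays, and lay between 61 and 184 when 1 array was left out. The PFNA count against control went from 39 to 59 after centring, 115 with the filter, 73 with array weights, 120 with the trended prior, 148 without both arrays and 6 with only the compared groups, and lay between 9 and 34 when 1 array was left out. With the replicate block the PFOS and PFNA counts against control were 414 and 47. Beyond these values the cause of each shift was not tested.

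Of 131 named genes, 1 was called with all arrays and 76 without both divergent ones, and 3 uncalled marker genes changed sign when 1 array was left out. C1qa ranged from -0.005 to 0.27, Tek from -0.015 to 0.38 and Muc1 from -0.06, with -0.03167 next, to 0.3133. Groups of 3 arrays, or 2 once an array is left out, limit every comparison.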

Other observations

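The largest difference of all probes without a gene symbol was that of probe 17243761. It read 3.94, 4.06 and 9.37 with PFNA and 8.85, 9.10 and 9.94 with PFOS on the high-fat diet, a difference of -5.30 without the divergent arrays. Of the 510 probes called without those arrays, 454 measure 1 gene, 18 several and 38 none that the annotation names. Small nucleolar RNA probes gave 4 lower and 0 higher calls among 82, where 0.728% and 0.751% of all probes were called lower and higher. Snora73b, which guides ribosomal RNA processing, read 7.41, 7.02 and 9.85 with PFNA against 9.31, 10.11 and 9.64 with PFOS, and its near copy Snora73a read 7.24, 6.76 and 9.35 against 8.85, 9.73 and 9.23, and the probes of the pair may share signal. Snora61 read 6.68, 7.01 and 8.48 against 8.45, 8.72 and 8.56. In each, PFNA replicate 3 lay near the PFOS arrays.

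Of the 510 probes, 32 had PFNA replicate 3 nearer to the other PFNA arrays than to PFOS. Besides Slc22a30, Cyp26a1, Akr1c6, Scai, Kcnk2 and Enc1, they included Spire2, an actin nucleator, at 5.32, 5.40 and 5.54 with PFNA against 5.88, 5.95 and 6.04 with PFOS, and Papln at 5.06, 5.07 and 5.36 against 5.85, 5.75 and 5.74. Pigr, the receptor that carries immunoglobulin A across epithelia, was picked out after its values were seen. It read 12.15, 12.08 and 10.88 with PFNA against 10.61, 10.7 and 10.7 with PFOS, a difference of 1.44 ± 0.12 without the divergent arrays (limma, adjusted p = 2.09e-05) and 1.03 with all arrays. Fbp2 read 4.33, 4.48 and 6.48 with PFNA against 6.10, 6.34 and 6.49 with PFOS, a difference of -1.91 ± 0.21 with PFNA replicate 3 alone left out (limma, adjusted p = 0.00392).

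The call for Slc22a30 passed in the model of all 18 arrays and missed by a wide margin in a model of the 6 arrays compared (limma, adjusted p = 0.678), with the same difference of 1.36 in both.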
